A study of Mus musculus with 16 samples.

Results

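The genes described here are 10 transcripts of oxidative and metal stress defence in the mouse heart, chosen by symbol: Hmox1, Txnrd1, Srxn1, Gclc, Gclm, Nqo1, Gstm1, Gsta4, Mt1 and Mt2. All 10 were present in both count tables of the study, among 14138 genes in the first and 17831 in the second. RNA sequencing had been carried out on heart samples of 4 groups. Their content of atrial transcripts differed widely, as given below. The first table holds 5 CPT2H-KO hearts, in which carnitine palmitoyltransferase 2 (CPT2), an enzyme needed to burn long-chain fatty acids in mitochondria, was deleted in cardiomyocytes, and 5 wild type hearts. The second holds 3 CPT2/USP30 double KO hearts and 3 CPT2 single KO hearts. Both groups of the second table are labelled as CPT2 knockouts, and the double KO hearts also as knockouts of USP30, which sits on mitochondria and removes the ubiquitin marks that lead to mitophagy. The floxed Usp30 allele was deleted with Myh6-Cre, whose promoter is active in heart muscle cells. Age, sex and genetic background are not given in the labels. The tables were made separately, so groups were compared within a table only.

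NRF2 is a transcription factor that the adaptor KEAP1 normally hands over for degradation. When electrophiles or oxidants modify KEAP1, NRF2 accumulates, pairs with a small MAF protein and binds antioxidant response elements of genes that make glutathione, reduce thioredoxin and conjugate reactive compounds. BACH1 competes for the same elements and is displaced by haem, which is the classical route to Hmox1 induction. Metallothioneins are small cysteine-rich proteins that hold zinc and copper. Their genes respond to zinc through the factor MTF1 at metal response elements, and also to glucocorticoids and oxidants.

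The start regions of a few of these genes show the elements in question. They are shown for Srxn1, which was higher in CPT2H-KO hearts, and for the neighbours Mt1 and Mt2, which did not keep the same proportion there. Windows of 250 bases before to 50 bases after the start, from RefSeq on GRCm38.p6, were found for 7 of the 10 genes. Capitals mark matches to the antioxidant response element core, TGACNNNGC or TGAGNNNGC, in Srxn1, and to the metal response element core, TGCACNC or TGCGCNC, in the metallothionein genes, each on either strand. The Srxn1 window is chr2:152105274-152105573, the Mt1 window chr8:94178839-94179138 and the Mt2 window chr8:94172368-94172667, all on the plus strand.
Srxn1: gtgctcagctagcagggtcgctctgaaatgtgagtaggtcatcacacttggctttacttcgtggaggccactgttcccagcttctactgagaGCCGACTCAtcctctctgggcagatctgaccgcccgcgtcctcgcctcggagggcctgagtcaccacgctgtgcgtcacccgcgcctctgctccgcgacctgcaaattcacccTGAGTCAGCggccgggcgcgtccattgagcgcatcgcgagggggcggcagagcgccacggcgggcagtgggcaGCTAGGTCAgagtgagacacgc
Mt1: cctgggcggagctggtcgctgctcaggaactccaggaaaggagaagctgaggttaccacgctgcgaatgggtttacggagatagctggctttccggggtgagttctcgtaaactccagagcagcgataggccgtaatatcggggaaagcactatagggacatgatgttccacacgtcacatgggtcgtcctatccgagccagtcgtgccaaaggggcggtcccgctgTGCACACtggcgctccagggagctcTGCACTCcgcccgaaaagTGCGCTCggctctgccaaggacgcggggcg
Mt2: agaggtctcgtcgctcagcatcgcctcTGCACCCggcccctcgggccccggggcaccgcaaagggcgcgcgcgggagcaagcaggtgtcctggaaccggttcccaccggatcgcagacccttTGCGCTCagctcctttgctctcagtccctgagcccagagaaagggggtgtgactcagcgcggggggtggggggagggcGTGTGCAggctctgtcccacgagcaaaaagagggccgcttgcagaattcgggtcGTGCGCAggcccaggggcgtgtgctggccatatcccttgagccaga

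The Srxn1 window held 3 antioxidant core matches. Of 32851 mouse windows of this length, 27.8% held at least 1 such match and 0.63% at least 3. Mt1 held 3 metal core matches and Mt2 held 4, where 25.7% of all windows held at least 1, 1.97% at least 3 and 0.517% at least 4. The Gclm window held 3 metal core matches as well, and those of Srxn1 and Gstm1 held 1 each. Mt2 also held 1 antioxidant core match. The windows of Nqo1 and Gstm1 held 0 antioxidant core matches. That of Gclm held 1, and so did the second of 3 Txnrd1 windows. A match is a description of letters and not of binding.

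Libraries of the first table held 54674422 to 132762776 counts and those of the second 11067969 to 13532716. Levels are given in CPM, counts divided by the TMM-scaled library size, and groups were compared with edgeR's quasi-likelihood test, with Benjamini-Hochberg adjustment over all tested genes and a threshold of 0.05. Where a group without the deletion stood beside it, the targeted transcript was lower in each library labelled as its knockout. Cpt2 was at 30.4 to 44.9 CPM in CPT2H-KO hearts and 53.0 to 89.9 CPM in wild type hearts, and Usp30 was at 7.45 to 10.4 CPM in double KO hearts and 18.5 to 22.8 CPM in single KO hearts. Cpt2 was at 166 to 189 CPM in double KO hearts and 164 to 182 CPM in single KO hearts, with no wild type heart in that table to check the label against. Some libraries stood apart from the rest of their group. The atrial genes Myl7, Myl4 and Sln summed to 1.16 to 2.02 CPM in CPT2H-KO replicates 2, 3 and 4, to 45.5 CPM in replicate 1 and 353 CPM in replicate 5, and to 57.1 to 438 CPM in wild type hearts. In the second table the sum of Myl7 and Myl4, the atrial genes tested there, was 8.88, 355 and 1299 CPM in double KO replicates 1, 2 and 3, and 2.57 to 3.58 CPM in single KO hearts. Y-linked transcripts were at background in 2 of 5 CPT2H-KO, 1 of 5 wild type, 3 of 3 double KO and 1 of 3 single KO libraries.

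In CPT2H-KO hearts, 5 of the 10 transcripts changed, where edgeR called 33.7% of all genes. Of these, 4 rose, where edgeR called 16.7% of all genes higher, and 1 fell, where it called 17.0% lower. The risers were Hmox1, Txnrd1, Srxn1 and Gclc, with log2 fold changes of 0.43 to 0.96, and the faller was Gsta4. Nqo1, Gclm, Gstm1, Mt1 and Mt2 were not called. At an unadjusted p under 0.05 there were 8 of 10, beside 44.5% of all genes. The median log2 fold change of the 10 was 0.40, beside -0.01 over all 14123 tested genes. For the 4 risers the groups did not overlap, which held for 11.5% of all genes in that direction.

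Hmox1 encodes haem oxygenase 1, the inducible enzyme that breaks haem down to biliverdin, iron and carbon monoxide. It stood at 5.77, 4.96, 5.45, 6.51 and 5.10 CPM in CPT2H-KO replicates 1 to 5, against 3.49, 1.96, 2.44, 2.82 and 3.62 CPM in wild type replicates 1 to 5. Each CPT2H-KO heart was above the highest wild type heart. With 0.96 (SE 0.16, edgeR adjusted p = 0.00138) it had the largest log2 fold change among the 10. Macrophages that recycle red cells are a known source of Hmox1. The 9 macrophage markers summed to 121 to 212 CPM in CPT2H-KO hearts and 167 to 211 CPM in wild type hearts, with 0 of 9 higher, 1 lower and none at 0 in a group. In bulk tissue, fewer cells of a type and less RNA per cell cannot be told apart. The part of macrophages in the Hmox1 values was not tested.

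Txnrd1, the cytosolic thioredoxin reductase, and Srxn1, the sulfiredoxin that restores over-oxidised peroxiredoxins, belong to the thioredoxin arm. Txnrd1 stood at 29.6, 29.7, 26.7, 30.1 and 35.8 CPM in CPT2H-KO hearts, against 20.9, 18.9, 20.2, 20.2 and 20.9 CPM in wild type hearts. The wild type hearts lay within a narrow band and every CPT2H-KO heart was above it, with a log2 fold change of 0.59 (SE 0.08, edgeR adjusted p = 3.65e-04). Srxn1 stood at 11.3, 11.8, 9.82, 9.94 and 17.0 CPM in CPT2H-KO hearts, against 7.78, 7.83, 8.10, 6.15 and 8.76 CPM in wild type hearts. Replicate 5 was the highest CPT2H-KO heart by a wide margin and the groups did not overlap, with a log2 fold change of 0.64 (SE 0.15, edgeR adjusted p = 0.00872). Without that heart the log2 fold change was 0.48 (edgeR adjusted p = 0.00744).

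Glutathione is made in a rate-limiting step by glutamate-cysteine ligase, whose catalytic subunit is encoded by Gclc and whose modifier subunit is encoded by Gclm. Gclc stood at 11.1, 7.48, 7.34, 7.05 and 8.20 CPM in CPT2H-KO hearts, against 6.21, 5.94, 5.95, 5.95 and 6.56 CPM in wild type hearts. The groups did not overlap, and CPT2H-KO replicate 1 was the highest heart. The difference came to 0.43 on the log2 scale (SE 0.12, edgeR adjusted p = 0.0171), and to 0.30 without replicate 1 (edgeR adjusted p = 0.00672). Gclm was at 9.15 to 11.6 CPM in CPT2H-KO hearts and 7.23 to 10.3 CPM in wild type hearts, which overlapped (log2 fold change 0.21, SE 0.12, edgeR adjusted p = 0.202). When counts were scaled by library totals alone, which moved the median log2 fold change of all genes to -0.27, the values were 0.15 for Gclc (edgeR adjusted p = 0.323), -0.04 for Gclm (edgeR adjusted p = 0.842) and 0.38 for Srxn1 (edgeR adjusted p = 0.0715), and 2 of the 10 genes were then called higher and 2 lower.

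Nqo1, the NAD(P)H quinone dehydrogenase that is often used as a readout of NRF2, stood at 25.0, 25.2, 19.5, 16.5 and 22.9 CPM in CPT2H-KO hearts, against 13.2, 19.3, 17.3, 17.8 and 17.1 CPM in wild type hearts. CPT2H-KO replicate 4 was below 4 of the wild type hearts, and the other CPT2H-KO hearts were above all of them. The log2 fold change was 0.36 (SE 0.13) and missed the threshold by little (edgeR adjusted p = 0.0523). It passed in 3 of 19 alternatives, with RLE scaling (adjusted p = 0.0495), with DESeq2 (adjusted p = 0.0278) and without CPT2H-KO replicate 4 (log2 fold change 0.45, edgeR adjusted p = 0.0164). In the other 16 it did not, and with scaling by library totals it was 0.11 (edgeR adjusted p = 0.596).

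**Figure D1:**
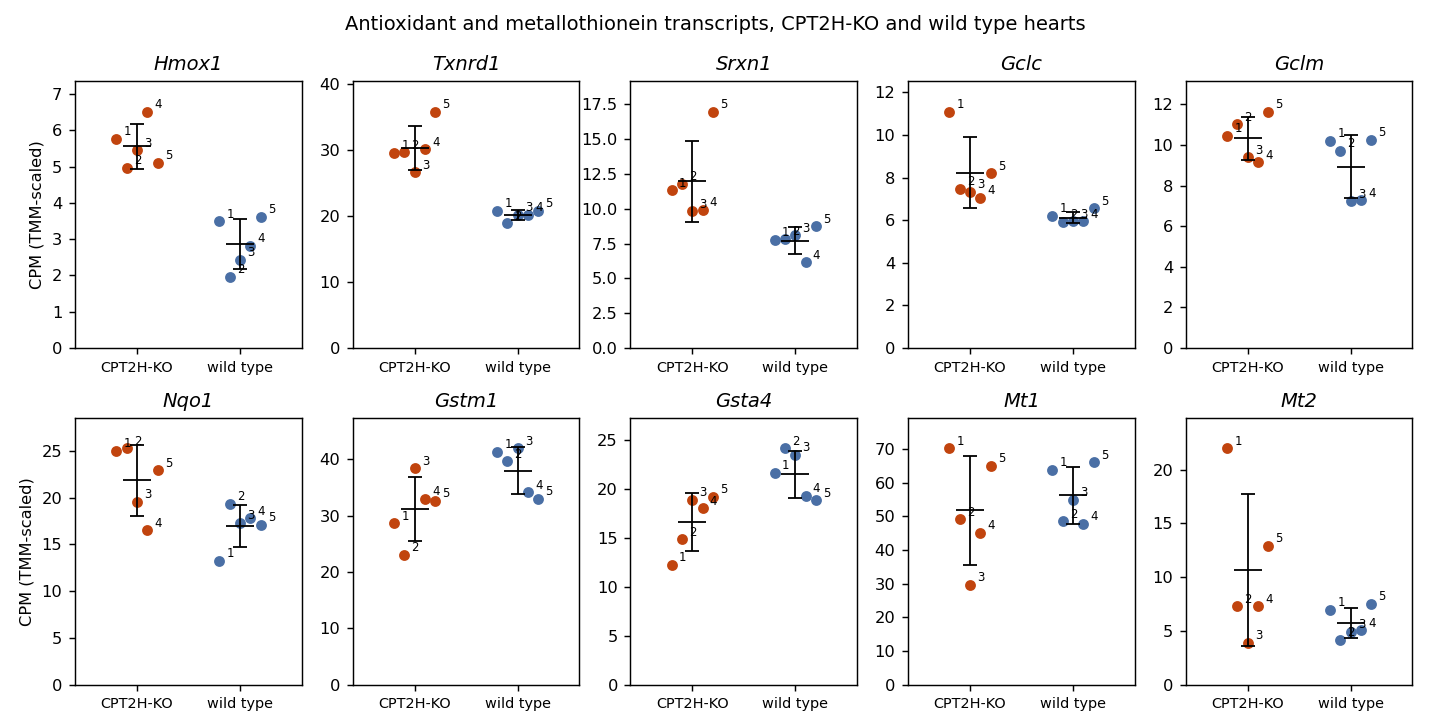
TMM-scaled CPM of the 10 transcripts in 5 CPT2H-KO hearts (left of each panel) and 5 wild type hearts (right); points are hearts with their replicate numbers, and bars are the mean ± SD. The groups are apart for Hmox1, Txnrd1, Srxn1 and Gclc, while Mt2 runs from 3.91 to 22.0 CPM among CPT2H-KO hearts.

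Gstm1 and Gsta4 encode glutathione S-transferases of the mu and alpha classes, which couple glutathione to electrophiles such as the lipid aldehyde 4-hydroxynonenal, a preferred substrate of the Gsta4 enzyme. Gsta4 stood at 12.3, 14.9, 18.9, 18.0 and 19.2 CPM in CPT2H-KO hearts, against 21.6, 24.1, 23.5, 19.3 and 18.8 CPM in wild type hearts. The 2 highest CPT2H-KO hearts reached the level of the lowest wild type heart. It fell by 0.37 on the log2 scale (SE 0.13, edgeR adjusted p = 0.0450), close to the threshold. The call was lost in 11 of 19 alternatives, in which the direction stayed the same (adjusted p up to 0.161). Leaving out wild type replicate 1, 2 or 3 or CPT2H-KO replicate 1, 2 or 4 each ended it, with log2 fold changes of -0.36, -0.32, -0.33, -0.28, -0.33 and -0.40. Gstm1 stood at 28.7, 23.1, 38.4, 33.0 and 32.6 CPM in CPT2H-KO hearts, against 41.4, 39.6, 41.9, 34.1 and 32.9 CPM in wild type hearts, with a log2 fold change of -0.29 (SE 0.13, edgeR adjusted p = 0.102). Gstm1 was called lower with scaling by library totals (-0.56, edgeR adjusted p = 0.00267) and without CPT2H-KO replicate 3 (-0.37, edgeR adjusted p = 0.0391).

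Most other tested genes of the glutathione transferase family fell. Of 20 further family genes, 16 were tested in the first table, of which 12 fell and 0 rose, beside 17.0% of all genes called lower. Their median log2 fold change was -0.90, and for 11 of the 12 fallers the groups did not overlap, beside 13.2% of all genes not overlapping and lower. Gstk1, the mitochondrial and peroxisomal kappa class enzyme, stood at 2.39, 4.57, 8.28, 8.00 and 8.06 CPM in CPT2H-KO hearts, against 22.7, 22.4, 25.9, 19.6 and 16.7 CPM in wild type hearts, a log2 fold change of -1.77 (SE 0.29, edgeR adjusted p = 0.00113). The microsomal Mgst3 stood at 41.6, 46.3, 46.8, 46.2 and 47.1 CPM in CPT2H-KO hearts, against 75.8, 72.4, 78.8, 67.7 and 61.9 CPM in wild type hearts, a log2 fold change of -0.65 (SE 0.07, edgeR adjusted p = 1.56e-04). Gstm5, of the mu class, had a log2 fold change of -0.61 (SE 0.09, edgeR adjusted p = 6.31e-04). Gstm2 and Gstt1 had log2 fold changes of -1.07 and -1.23. Gsto1 alone among the 16 had a value above 0 (0.22, edgeR adjusted p = 0.0991).

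Gstp2 was low throughout, at 9 to 61 counts in CPT2H-KO hearts and 75 to 159 counts in wild type hearts (log2 fold change -1.73, edgeR adjusted p = 0.00104). It is a near-identical neighbour of Gstp1 (-0.53), and the mu class genes lie in 1 cluster, so reads may have been split between copies. The count of fallers was 9 to 14 over the alternatives and the count of risers 0 in each. Fibroblast markers ran the other way, with 2 of 6 higher and 0 lower, none at 0, and a sum of 596 to 1092 CPM in CPT2H-KO hearts and 440 to 592 CPM in wild type hearts. Smooth muscle and pericyte markers summed to 363 to 429 CPM in CPT2H-KO hearts and 495 to 575 CPM in wild type hearts, with 2 of 5 lower and none at 0, and cardiomyocyte markers to 48996 to 56946 CPM in CPT2H-KO hearts and 54300 to 61660 CPM in wild type hearts, with 5 of 8 lower and none at 0. Adipocyte markers, 3 of 4 tested with 0 called and none at 0, summed to 0.0395 to 0.0813 CPM in CPT2H-KO replicates 1 to 4, 8.28 CPM in CPT2H-KO replicate 5 and 1.47 to 9.02 CPM in wild type hearts. CPT2H-KO replicate 5 was also the highest CPT2H-KO heart for Gsta3 and Gstt1, at 2.41 and 3.47 CPM. The same held for Gstm5, Gstm6, Gstp1, Gstp2, Gstz1 and Mgst3, and not for the rest of the 16 tested family genes. That heart also had the highest atrial sum among CPT2H-KO hearts, at 353 CPM. The part of these markers in the transferase values was not tested. The genes chosen here after their values were seen are Gstk1, Gstm2, Gstm6, Gstt1, Gsta3, Gstp1, Gstz1 and Gsto1.

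**Figure D2:**
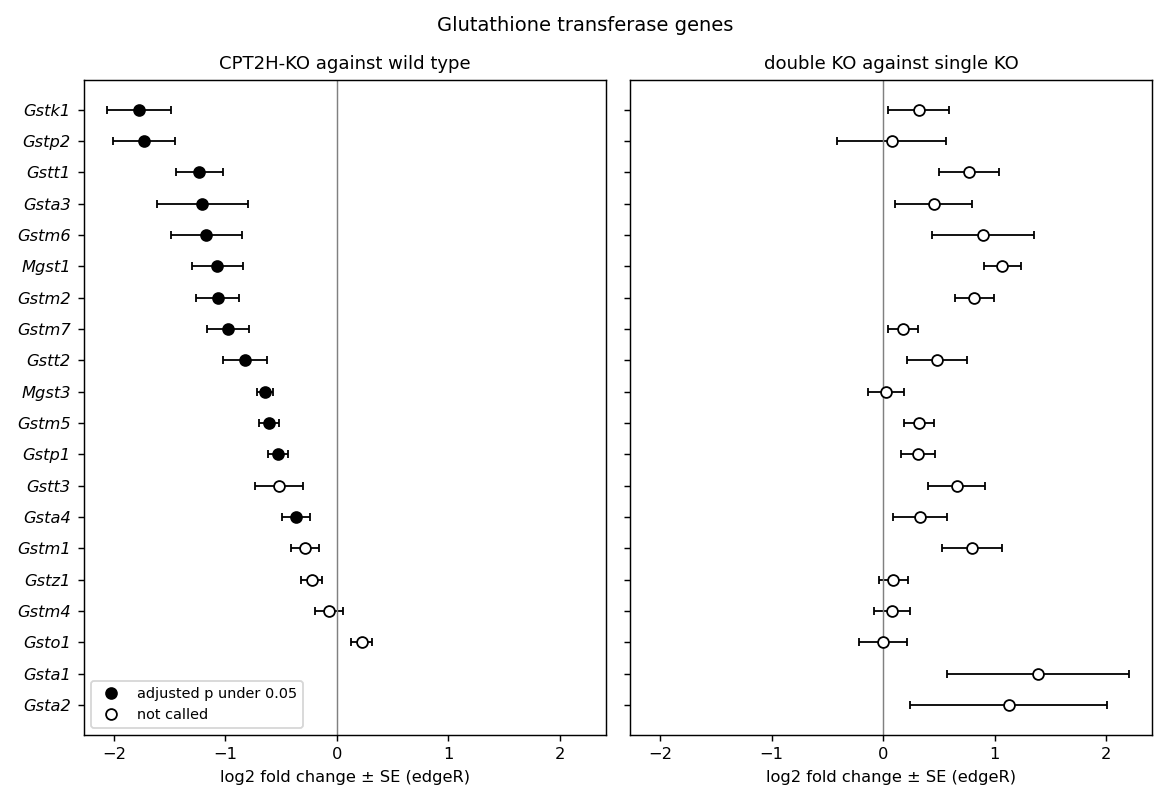
edgeR log2 fold change ± SE of Gstm1, Gsta4 and the other tested glutathione transferase genes in CPT2H-KO against wild type hearts (left) and in double against single KO hearts (right); filled points passed the adjusted p threshold of 0.05. On the left 12 of the 16 other family genes are called lower, and on the right 18 of 18 lie above 0 with 0 called; Gsta1 and Gsta2 were tested in the second table only.

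The metallothionein genes Mt1 and Mt2 lie next to each other on chromosome 8, Mt2 at 94172664 to 94173568 and Mt1 at 94179082 to 94180327, both on the plus strand (GENCODE M21, GRCm38). Mt1 stood at 70.2, 49.1, 29.7, 45.1 and 65.0 CPM in CPT2H-KO hearts, against 63.9, 48.6, 54.9, 47.8 and 66.1 CPM in wild type hearts. The groups overlapped (log2 fold change -0.12, SE 0.20, edgeR adjusted p = 0.683). The sign of Mt1 turned without CPT2H-KO replicate 3 (0.03) and with the atrial covariate (0.22), and the value was -0.25 without CPT2H-KO replicate 1. Mt2 stood at 22.0, 7.31, 3.91, 7.28 and 12.9 CPM in CPT2H-KO hearts, against 6.98, 4.19, 4.95, 5.07 and 7.55 CPM in wild type hearts. Mt2 varied most of the 10 genes among CPT2H-KO hearts, with the highest heart 5.63 times the lowest. Mt2 had a log2 fold change of 0.90 (SE 0.38, edgeR adjusted p = 0.0927), 0.47 without CPT2H-KO replicate 1 (edgeR adjusted p = 0.244) and 1.11 without CPT2H-KO replicate 3 (edgeR adjusted p = 0.0264). With the atrial covariate it was 1.51 (edgeR adjusted p = 0.0195), and with DESeq2 0.91 (adjusted p = 0.0383). The atrial sum was 1.16 to 45.5 CPM in CPT2H-KO replicates 1 to 4 and 57.1 to 438 CPM in wild type hearts. Only CPT2H-KO replicate 5, at 353 CPM, lay in the wild type range. The atrial fit therefore separates atrial transcripts from genotype poorly.

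Replicates 1 and 5 were the highest CPT2H-KO hearts for both genes, and replicate 3 the lowest. Library scaling does not enter the ratio of the pair. Mt2 had 31.3, 14.9, 13.2, 16.1 and 19.9 counts per 100 Mt1 counts in CPT2H-KO hearts, against 10.9, 8.62, 9.02, 10.6 and 11.4 in wild type hearts. Every CPT2H-KO heart was above every wild type heart, with means of 19.1 ± 7.27 and 10.1 ± 1.23 (SD, n = 5 each). The ratio was chosen after its values were seen, so no test is given, and it shows unequal change of the pair, not which gene moved. Annotated genes overlap Mt2 (1, on the opposite strand), Txnrd1 (3, of which 1 on the same strand) and Gclm (2, of which 1 on the same strand). Whether reads were counted by strand is not stated, so reads of these genes may be shared with the overlapping ones.

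**Figure D3:**
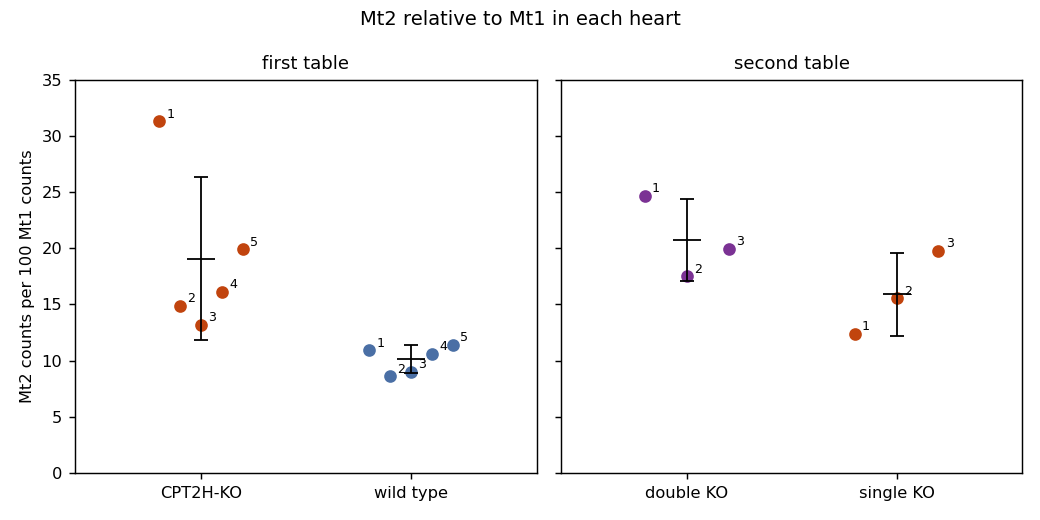
Mt2 counts per 100 Mt1 counts in each heart, in CPT2H-KO and wild type hearts (left panel) and in double and single KO hearts (right panel); points are hearts with their replicate numbers, bars are the mean ± SD. CPT2H-KO hearts lie at 13.2 to 31.3 and wild type hearts at 8.62 to 11.4, while double KO hearts at 17.5 to 24.7 overlap single KO hearts at 12.4 to 19.8.

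To set genes roughly beside each other, levels were divided by the merged length of all annotated exons. For Mt1 that length, 1246 bases, takes in the whole gene, so the order depends in part on the annotation. Mean levels in wild type hearts ran from Mt1 (45.1 CPM per kb) to Gstm1 (25.8), Gsta4 (17.0), Nqo1 (10.9) and Mt2 (9.77). Then came Txnrd1 (2.85), Srxn1 (2.74), Hmox1 (1.64), Gclc (1.63) and, lowest, Gclm. Neighbours whose ranges overlapped were Nqo1 and Mt2, Txnrd1 and Srxn1, Hmox1 and Gclc, and Gclc and Gclm. In CPT2H-KO hearts Mt1 (41.6 CPM per kb) was again first and Gclm (1.64) last, with Mt2 (18.2) in place 3 ahead of Nqo1 (14.1) and Gsta4 (13.2). Only the steps between Gsta4 and Txnrd1 and between Gclc and Gclm were then free of overlap between neighbours.

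Nfe2l2, which encodes NRF2, was at 27.4 to 34.3 CPM in CPT2H-KO hearts and 24.3 to 39.6 CPM in wild type hearts, with a log2 fold change of -0.06 (SE 0.12, edgeR adjusted p = 0.700). Keap1 stood at 17.0, 18.1, 18.9, 18.0 and 17.8 CPM in CPT2H-KO hearts, against 21.6, 22.9, 22.6, 20.5 and 22.1 CPM in wild type hearts. It fell with no overlap (log2 fold change -0.29, SE 0.06, edgeR adjusted p = 0.00309). Bach1 was at 20.4 to 24.3 CPM in CPT2H-KO hearts and 16.6 to 23.2 CPM in wild type hearts, which overlapped. Mafg, a small MAF partner of NRF2, rose by 0.45 on the log2 scale (edgeR adjusted p = 0.00283), and Nfe2l1, the NRF1 gene, rose by 0.28 (edgeR adjusted p = 0.0155). Of the 9 regulators listed, 2 rose and 2 fell, the second being Rbx1 (-0.24), near the 16.7% of all genes called higher and 17.0% called lower. Mtf1, the zinc sensor of the metallothionein genes, was not called (-0.14, SE 0.13, edgeR adjusted p = 0.442), nor was any of the 7 tested genes of zinc and metallothionein control by edgeR, 1 of which, Mt3 (0.74, edgeR adjusted p = 0.0864), had an unadjusted p under 0.05.

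Other genes known to follow NRF2 differed in direction. Of 19 tested, 5 rose and 2 fell, namely Cbr1 (-0.46) and Taldo1 (-0.33), with a median of 0.14, beside 16.7% of all genes called higher and 17.0% called lower. The share called is near that of all genes. The NADPH-producing Me1 had the largest value at 1.19 (SE 0.08, edgeR adjusted p = 8.23e-06), and Pgd, of the pentose phosphate pathway, had 0.73 (SE 0.09, edgeR adjusted p = 3.00e-04). The efflux pump gene Abcc4 had 0.50, Aox1 0.44 and the ferritin light chain gene Ftl1 0.38. Of 16 genes of glutathione synthesis and use, 2 rose, the glutathione-degrading Chac1 (1.36) and the glutathione peroxidase gene Gpx4 (0.28), and 4 fell, among them the glutaredoxin gene Glrx (-0.50). Of 17 thioredoxin and peroxiredoxin genes, 2 rose, the mitochondrial reductase Txnrd2 (0.58) and Sesn2 (1.28), and 4 fell, Prdx2 (-0.30), Prdx3 (-0.35), Prdx5 (-0.25) and Msrb2 (-0.73). The mitochondrial superoxide dismutase gene Sod2 fell (-0.32), while catalase, Cat (0.28), and the extracellular dismutase gene Sod3 (0.47, edgeR adjusted p = 0.0476) rose. Of 9 genes of haem breakdown and iron storage, Ftl1, which is on both lists, rose and the iron exporter gene Slc40a1 fell (-0.60, edgeR adjusted p = 0.0467). Of 8 glucocorticoid-induced genes, Cdkn1a (1.62) and Sgk1 (0.83, edgeR adjusted p = 0.0422) rose and Tsc22d3 (-0.47) fell. The calls of Sod3, Slc40a1 and Sgk1 were close to the threshold and were not followed over the alternatives.

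Because no called member reached 1 on the log2 scale, the 3 members with the largest absolute change were matched to the other genes by profile. Likeness was the root mean square difference between log2 CPM profiles over the 10 hearts of the first table, each centred on its own mean, among 10116 genes. Nearest to Hmox1 were Rangap1 (0.18), Ankrd13b (0.19) and Frrs1 (0.21). Nearest to Srxn1 were Nceh1 (0.14), Atf4 (0.15), the transcription factor gene of the integrated stress response, and Rnf115 (0.17). Nearest to Mt2 were Map3k6 (0.23), Plscr1 (0.29) and Sox17 (0.29). The profiles span both groups, so genes with a like group difference lie near each other. The 3 genes nearest to Hmox1 had log2 fold changes of 0.92 to 0.97. A shared cause was not tested for any of these genes.

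In the second table, edgeR called 0 of the 10 genes in double against single KO hearts, as it did of all 12997 genes tested (0%). All 10 log2 fold changes were above 0, as were 50.4% of those of all genes, with a median of 0.43 beside 0.00 over all genes. At an unadjusted p under 0.05 there were 5 of 10, Hmox1, Srxn1, Gstm1, Mt1 and Mt2, beside 7.25% of all genes. The groups did not overlap for Hmox1, Gstm1 and Mt2, all higher in double KO hearts, beside 6.69% of all genes in that direction. Of the 10, DESeq2 called 0, beside 124 of 13286 genes, and limma-voom called 0, beside 0 of 12997.

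Mt2 stood at 66.6, 26.8 and 25.0 CPM in double KO replicates 1 to 3, against 14.3, 20.4 and 19.8 CPM in single KO replicates 1 to 3. Double KO replicate 1 was far above the rest, and the other double KO hearts were just above the single KO hearts. Mt2 had a log2 fold change of 1.12 (SE 0.35, edgeR adjusted p = 0.469), and of 0.51 without double KO replicate 1 (edgeR adjusted p = 0.293). Mt1 stood at 269.7, 153 and 125 CPM in double KO hearts, against 116, 131 and 100.1 CPM in single KO hearts, which overlapped. Mt1 had a log2 fold change of 0.66 (SE 0.26, edgeR adjusted p = 0.617), and of 0.27 without double KO replicate 1 (edgeR adjusted p = 0.642). Double KO replicate 1 was the double KO heart with the fewest atrial transcripts. With the atrial covariate both genes were called, Mt1 at 1.43 (SE 0.19, edgeR adjusted p = 0.0179) and Mt2 at 2.06 (SE 0.24, edgeR adjusted p = 0.0166), among 64 of 12997 genes called in that fit. The same fit gave -0.19 for Gclc and -0.46 for Txnrd1, neither called. The Myl7 and Myl4 sum was at least 8.88 CPM in double KO hearts and at most 3.58 CPM in single KO hearts. Atrial transcripts and genotype were thus largely confounded, and that fit cannot tell them apart. Mt2 had 24.7, 17.5 and 20.0 counts per 100 Mt1 counts in double KO hearts, against 12.4, 15.5 and 19.8 in single KO hearts, which overlapped.

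Gstm1 stood at 239, 455 and 234 CPM in double KO hearts, against 185, 139.6 and 209.8 CPM in single KO hearts. Double KO replicate 2 was highest, and all 3 were above the single KO hearts (log2 fold change 0.80, SE 0.27, edgeR adjusted p = 0.519; 0.41 without double KO replicate 2). Hmox1 stood at 36.1, 26.4 and 21.5 CPM in double KO hearts, against 19.3, 19.9 and 19.1 CPM in single KO hearts, with a log2 fold change of 0.53 (SE 0.19, edgeR adjusted p = 0.552). It was 0.30 without double KO replicate 1 (edgeR adjusted p = 0.560). With the atrial covariate, largely confounded with genotype, it was 1.03 (edgeR adjusted p = 0.0502). The 9 macrophage markers summed to 540, 356 and 355 CPM in double KO hearts and 432, 273 and 223 CPM in single KO hearts, with 0 called and none at 0, and their part in the Hmox1 values was not tested. Srxn1 stood at 71.5, 87.4 and 46.6 CPM in double KO hearts, against 39.6, 35.3 and 52.6 CPM in single KO hearts, where the lowest double KO heart lay within the single KO range (log2 fold change 0.69, SE 0.24, edgeR adjusted p = 0.524).

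The coefficient of variation of the 10 genes was 19.8% to 59.5% in double KO hearts and 2.31% to 21.2% in single KO hearts, and was the larger in double KO hearts for every gene but Gclc. Replicate 2 was the highest double KO heart for 7 of the 10 genes and replicate 1 for the other 3, Hmox1, Mt1 and Mt2, while replicate 3 was the lowest for 8. Nqo1 stood at 59.3, 110.0 and 40.7 CPM in double KO hearts, against 55.7, 51.4 and 66.3 CPM in single KO hearts. Without double KO replicate 2 its log2 fold change of 0.28 became -0.21, and that of Txnrd1, 0.15, became -0.15. Gclc, Gclm and Gsta4 had log2 fold changes of 0.26, 0.28 and 0.33 with overlapping groups, and of 0.15, 0.01 and 0.04 without double KO replicate 2. In that replicate 2 the red blood cell markers were at 4555 CPM, against 7542 and 7763 CPM in double KO replicates 1 and 3 and 8129 to 10042 CPM in single KO hearts, with 0 of 6 called and none at 0. Cardiomyocyte markers were at 104213 CPM in double KO replicate 2, against 71702 and 82458 CPM in replicates 1 and 3. In single KO hearts they were at 75682.5 to 81500.5 CPM, with 0 of 8 called and none at 0. The part of either marker set in these values was not tested.

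**Figure D4:**
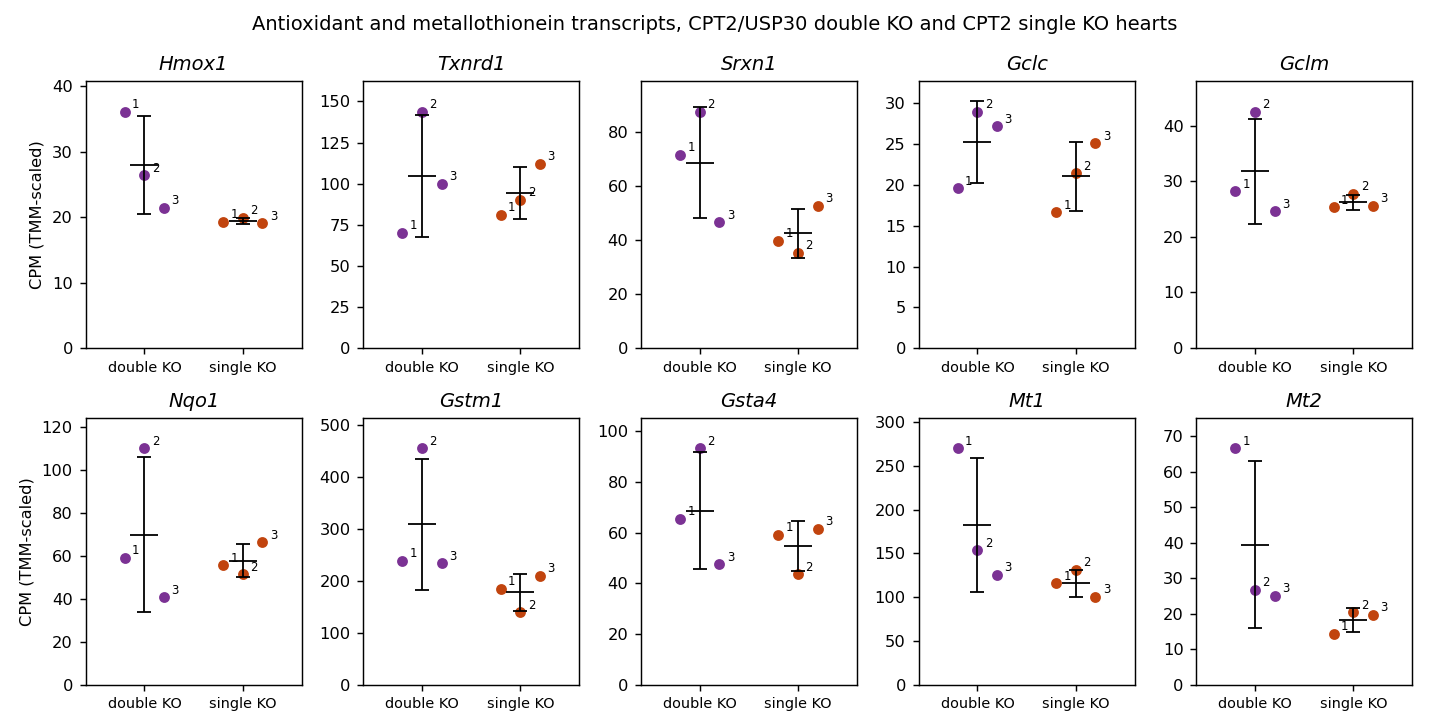
TMM-scaled CPM of the 10 transcripts in 3 CPT2/USP30 double KO hearts (left of each panel) and 3 CPT2 single KO hearts (right); points are hearts with their replicate numbers, and bars are the mean ± SD. Double KO replicate 1 is highest for Hmox1, Mt1 and Mt2 and replicate 2 for the other 7 genes.

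The wider glutathione transferase family also lay above 0 in double against single KO hearts. All 18 tested genes outside the 10 had log2 fold changes above 0, beside 50.4% of all genes, with a median of 0.39 and 0 called by edgeR, while 5 had an unadjusted p under 0.05. DESeq2 called 2 of them higher, beside 124 of 13286 genes, and so did edgeR without double KO replicate 1, beside 114 of 13177 genes. Mesothelial markers summed to 16.9, 35.4 and 90.1 CPM in double KO replicates 1 to 3 and 8.54 to 23.7 CPM in single KO hearts, with 0 of 4 called and none at 0. Endothelial markers summed to 827 to 957 CPM in double KO hearts and 1107 to 1214 CPM in single KO hearts, with 0 of 5 called and none at 0. Their part in the transferase values was not tested. The atrial genes Myl7 and Myl4 summed to 8.88, 355 and 1299 CPM in double KO replicates 1 to 3 and 2.57 to 3.58 CPM in single KO hearts. Atrial content was thus largely confounded with genotype for these genes as well. Mgst1, a microsomal transferase chosen after its values were seen, stood at 17.8, 19.5 and 23.6 CPM in double KO hearts, against 9.84, 8.99 and 10.3 CPM in single KO hearts, with a log2 fold change of 1.07 (SE 0.17, edgeR adjusted p = 0.147). In the first comparison Mgst1 had fallen, with a log2 fold change of -1.07 (SE 0.23, edgeR adjusted p = 0.00472). Gstm2 likewise had 0.82 (edgeR adjusted p = 0.252) in the second comparison beside -1.07 in the first. The comparisons share no library and the difference between them was not tested. In the first table the atrial sum of CPT2H-KO replicates 1 to 4 was below that of every wild type heart. The part of atrial content in the opposite signs was not tested. Keap1 (0.12), Nfe2l2 (-0.08) and Mtf1 (-0.28) were not called in the second table. Bach1 was at 32.3 to 62.2 CPM in double KO hearts and 34.2 to 44.1 CPM in single KO hearts, which overlapped.

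Sex and genotype were largely confounded in the second table, since Y-linked transcripts were carried by single KO replicates 1 and 2 and by no double KO heart. Set against single KO replicate 3 alone, a choice made after seeing the data, the double KO hearts had log2 fold changes of 0.99 for Mt2, 0.86 for Mt1, 0.55 for Hmox1 and Gstm1 and 0.37 for Srxn1, with edgeR adjusted p of 0.913 for the first 4 and 0.916 for Srxn1. The lone single KO heart is assumed there to vary like the double KO hearts.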

How the data were processed

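The authors deposited 2 tables of raw counts, 1 row per gene. Per the labels' protocols, the libraries were stranded and made from rRNA-depleted total RNA. The submitters' processing notes name bcl2fastq, HISAT2, DESeq2 1.42.0 and build mm10. How reads were assigned to genes, and whether by strand, is not stated. The first table lists no gene with a total under 151 counts.

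Here counts were filtered with filterByExpr, scaled by TMM and tested within each table with edgeR 4.0.16 (R 4.3.3). The code was also run on counts simulated from edgeR's own fitted means and dispersions. Such a run cannot show how well that model suits these hearts. SE was obtained as log2 fold change over the root of F. Alternatives were DESeq2 1.42.0, limma-voom (limma 3.58.1), other scalings, no low-count filter, replicate number as a block, carriage of Y-linked transcripts as a term, the mean log2 CPM of Myl7, Myl4 and Sln as an atrial covariate, and removal of each library. Exon lengths are from GENCODE M21. Litters are not given, so the p-values rest on the spread among these hearts, which may be partly technical. Totals per library limit the precision of low genes.

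The members and gene lists were chosen with earlier results of these data known. The text names all members, Nfe2l2, Keap1, Mtf1, Cpt2 and Usp30, up to 3 genes of each list with the smallest p in the first comparison, and the 3 nearest profiles of 3 members. Genes beyond these were chosen after their values were seen.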

Additional observations from a re-analysis of the deposited data

Results flagged for a closer look

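Of 22 groups of 5 hearts examined for a heart set apart from the others, 2 held one, where chance gives about 1 in 20. Gclc was at 11.1 CPM in CPT2H-KO replicate 1, and the gap to the next heart was 0.714 of the group's range. Srxn1 was at 17.0 CPM in CPT2H-KO replicate 5, with a gap of 0.721 of the range. Both genes kept their direction and their call without that heart.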

How the results depend on the processing

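The count of members called in CPT2H-KO against wild type hearts was 5, and 4 to 7 over the alternatives, 4 to 7 when each library was left out in turn, 7 with DESeq2, 5 with limma-voom and 4 with the replicate block. The members behind the count changed, with 4 higher and 1 lower in the main fit. RLE scaling gave 5 higher and 0 lower, and library totals 2 higher and 2 lower. Hmox1 and Txnrd1 kept their direction and call in all 19 alternatives, and Gclc and Srxn1 in 18 of 19. The 12 other glutathione transferases called lower became 11 to 12 when each library was left out, 12 with the replicate block, 9 with the atrial covariate and 9 without the libraries lacking Y-linked transcripts, the last chosen after seeing the data. In double against single KO hearts 0 members were called, 2 with the atrial covariate and 0 with the replicate block, DESeq2, limma-voom, other scalings and each library left out. Atrial transcripts and genotype were largely confounded in the second table, and the cause of the change with the atrial covariate was not tested. They were partly confounded in the first table too, where only CPT2H-KO replicate 5 lay in the wild type range of the atrial sum. Replicate numbers do not pair the hearts by the labels: same-numbered hearts had correlations of deviations of -0.0868 to 0.23 in the first table and -0.205 to 0.167 in the second, so the block has no basis in the design. The second table is shallower and has 3 hearts a group, which limits what could be called there.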
